A study of Homo sapiens with 8 samples.

Results

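The data were 8 lists of HIF-1β binding peaks from 4 human cancer cell lines, and the subject here is the set of 232 regions that held a HIF-1β site in all 4 of them, out of 3837 regions with a site in at least 1 line. The lines were PC-3 (prostate), T47D (breast), A549 (lung) and HCT-116 (colorectal), each kept at 0.5% oxygen for 16 h and each with 2 replicates, numbered 1 and 2 in PC-3 and T47D and 2 and 3 in A549 and HCT-116. In each library DNA bound by HIF-1β was immunoprecipitated and sequenced (ChIP-seq), and the authors deposited the interval and the score of every peak called by MACS. Each line is an established line in culture, the labels do not say whether the replicates came from separate cultures, and data from normoxic cells or from control precipitations were not used here. A site was a merged interval with overlapping peaks of both replicates of a line, and the sites of the 4 lines were then merged into regions. The members were therefore chosen by the measured peaks themselves, and their scores are given below as a description with no test.

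The hypoxia-inducible factors (HIF) are dimers of an oxygen-regulated HIF-α subunit and the constitutive HIF-1β subunit (ARNT), and they bind the short core motif ACGTG or GCGTG within hypoxia response elements. When oxygen is limiting the α subunits escape prolyl hydroxylation and degradation, and the dimers activate genes for glucose uptake, glycolysis, lactate export, angiogenesis and feedback control of the oxygen sensors. HIF-1β also pairs with other proteins of its family, among them the aryl hydrocarbon receptor (AHR), whose element holds the core TNGCGTG.

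The sequences below are examples from around the peak centres, picked among those that hold a copy of the core motif. No copy was held by the 120-base windows of GAPDH and ALDOA, both among the 15 highest members. At NARF, KDM3A and the region of PGAM1 and RRP12, also among these 15, the nearest copy lay 80, 144 and 106 bp from the centre. Nor was a copy held by the windows of NPEPPS, ABAT and CDC73, or by those of several other distal members. All sequences were taken from the plus strand of GRCh37 around the median midpoint of the peaks of a region. Every copy of ACGTG or GCGTG on either strand (CACGT or CACGC where it reads on the minus strand) is in capitals. The first 4 lie at promoters of genes that ranked among the 15 highest members. LDHA encodes lactate dehydrogenase A, ANKRD37 an ankyrin repeat protein, GPI glucose-6-phosphate isomerase and PDK1 a kinase that inactivates pyruvate dehydrogenase. For GPI and PDK1 only 30 bases around the copy nearest to the centre are shown. That copy lay 2 bp from the centre at GPI and 58 bp from it at PDK1.

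LDHA, chr11:18415954-18416073: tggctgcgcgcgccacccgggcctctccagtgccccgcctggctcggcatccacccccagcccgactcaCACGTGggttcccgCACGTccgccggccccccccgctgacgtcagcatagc
ANKRD37, chr4:186317645-186317764: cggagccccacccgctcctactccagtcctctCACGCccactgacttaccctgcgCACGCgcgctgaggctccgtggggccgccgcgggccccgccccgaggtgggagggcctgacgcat
GPI, chr19:34850347-34850376: tggcccaCACGCaCACGCGTGcgcattacc
PDK1, chr2:173420797-173420826: ccgcCACGTccctCACGTaccactcggcag

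The LDHA window held 3 copies, of which a pair overlapped in the palindrome CACGTG. In the GPI stretch 3 copies lay within 30 bases, and the PDK1 stretch held 2. The next 5 windows lie away from coding gene starts. They are downstream of HIF1A (the HIF-1α gene), in introns of SLC2A3 (glucose transporter GLUT3), EGLN3 (the prolyl hydroxylase PHD3), SEMA4B (a semaphorin) and SCARB1 (the high-density lipoprotein receptor). Introns are read from gene records, which span all annotated transcripts, so an intron here may lie upstream of other starts of the gene.

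HIF1A downstream, chr14:62217926-62218045: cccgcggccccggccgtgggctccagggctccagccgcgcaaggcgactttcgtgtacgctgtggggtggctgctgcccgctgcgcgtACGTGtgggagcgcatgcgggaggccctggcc
SLC2A3 intron, chr12:8123372-8123491: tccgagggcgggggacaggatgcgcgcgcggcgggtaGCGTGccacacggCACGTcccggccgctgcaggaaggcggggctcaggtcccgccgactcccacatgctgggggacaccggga
EGLN3 intron, chr14:34407672-34407791: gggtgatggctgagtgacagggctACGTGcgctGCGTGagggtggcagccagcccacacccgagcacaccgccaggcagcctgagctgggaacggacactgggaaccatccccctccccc
SEMA4B intron, chr15:90709042-90709161: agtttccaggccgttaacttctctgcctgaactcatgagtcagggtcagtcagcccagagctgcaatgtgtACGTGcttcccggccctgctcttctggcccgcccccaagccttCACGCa
SCARB1 intron, chr12:125322806-125322925: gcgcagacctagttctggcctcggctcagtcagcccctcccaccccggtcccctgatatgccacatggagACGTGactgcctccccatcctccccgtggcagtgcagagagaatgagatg

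The first of these 5 windows and the SCARB1 window held 1 copy each, and the other 3 held 2 each. The last pair is shown for contrast in rank. The region at CYP1B1, a cytochrome P450 gene known as an AHR target, had the widest spread of ranks between the lines. Its window held a GCGTG within the AHR core TNGCGTG, and so did the SLC2A3 window above. The region near PRPS1 ranked lowest of all 232, and its 5 copies overlapped in a run of GCGTG repeats.

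CYP1B1, chr2:38304026-38304145: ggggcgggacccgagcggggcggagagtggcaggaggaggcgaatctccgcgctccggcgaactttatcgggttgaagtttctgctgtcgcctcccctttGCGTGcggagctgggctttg
PRPS1, chrX:106916288-106916407: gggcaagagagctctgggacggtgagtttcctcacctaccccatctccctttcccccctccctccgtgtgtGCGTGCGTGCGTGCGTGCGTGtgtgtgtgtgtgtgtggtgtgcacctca

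Members were 6.05% of all regions, against 305 regions with a site in 3 lines, 685 in 2 lines and 2615 in a single line. They made up 23.9% of the 970 sites of PC-3, 11.25% of the 2062 of T47D, 22.3% of the 1041 of A549 and 13.2% of the 1756 of HCT-116. The 8 lists held from 1041 to 3788 peaks each on the main chromosomes. The lists hold no reads, so the depth behind each peak is unknown. The peaks of a member coincided closely. In 229 of 232 members every library had exactly 1 peak, all 4 sites of every member shared a stretch of 584 to 3248 bp (median 1218), and the 8 peak midpoints lay a median of 47.25 bp from their centre. The replicates of a line overlapped by at least 375 bp in every member, with the smallest overlap at ZNF562. Members were 1084 to 8939 bp wide (median 1916.5) and lay on every chromosome but Y.

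Most members lay at promoters. Of the 232, 139 (59.9%, 95% exact binomial interval 53.3–66.3) lay within 2 kb of the 5′ end of a protein-coding gene record, 29 (12.5%) lay within 2 kb of another annotated transcript start of a coding gene, and 64 (27.6%) were distal, over 2 kb from any coding start. A gene record spans all annotated transcripts of its gene, so another start may be the main start of that gene. Which starts the cells used was not measured. The intervals cover counting error only, since regions share libraries. The distal share was 37.05% in regions of 3 lines, 40.3% in regions of 2 lines and 53.5% in regions of a single line. At the 139 promoters the centre lay a median of 264 bp from the start, with 93 centres within 500 bp of it. In 117 of the 232 members the region covered the nearest coding gene start itself, and 18 members had coding starts on both strands within 2 kb, such as that of LONP1 and CATSPERD.

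**Figure D1:**
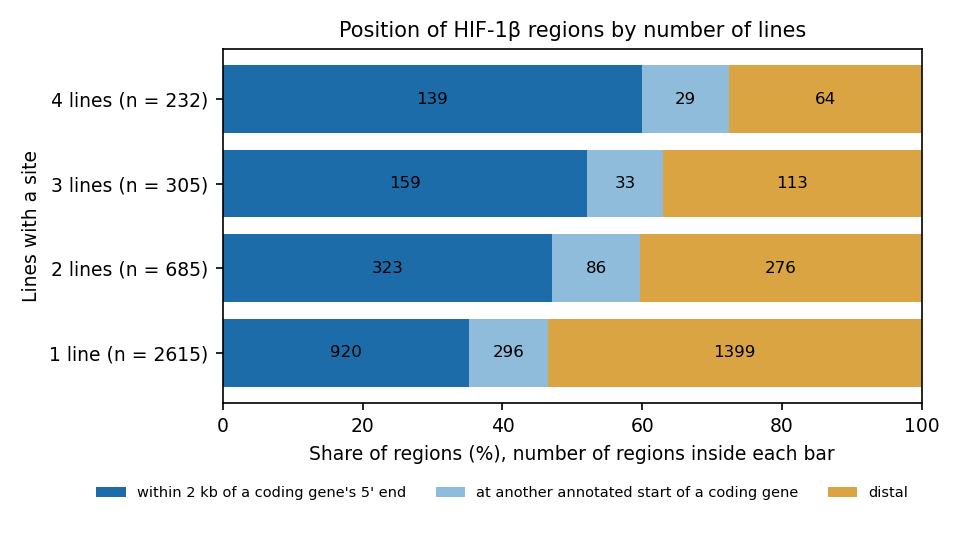
Share of regions (horizontal axis, percent) in each position class, by the number of lines with a site (vertical axis), with the number of regions in each segment. Regions of 4 lines have the largest promoter segment (139 of 232) and regions of 1 line the largest distal segment (1399 of 2615).

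Within each line, the sites inside members were compared with the other sites of the same line by Fisher's exact test, adjusted over the 4 lines. The rule for members did not use promoter position itself. A member must coincide with sites of T47D and HCT-116, however, and about 50% of their other sites lay at promoters. The shares in A549 and PC-3 are therefore not independent of those lists, and the part of this in the odds ratios was not tested. In A549 58.6% of member sites lay at promoters against 14.3% of the other sites (odds ratio 8.46, Fisher's exact test, adjusted p = 1.2e-38), and in PC-3 58.6% against 26.0% (odds ratio 4.03, Fisher's exact test, adjusted p = 7.8e-19). In T47D the shares were 59.9% and 50.5% (odds ratio 1.47, Fisher's exact test, adjusted p = 0.011). In HCT-116 they were 58.2% and 52.7%, which did not pass the threshold of 0.05 (odds ratio 1.25, Fisher's exact test, adjusted p = 0.12). The member sites of the 4 lines lie in the same 232 regions, so their shares are alike by construction, and the lines differ here through their other sites. Whether the odds ratios differed between lines was not tested. Member sites were wider than the others in all 4 lines, with medians of 1538 against 1372 bp in PC-3 and 1270 against 1178 bp in A549, and the part of width in these shares was not tested. Among sites in the higher-ranked 50% of each line the difference passed in HCT-116 too (odds ratio 1.45, Fisher's exact test, adjusted p = 0.024), and in T47D it did not pass with promoters of 500 bp (odds ratio 1.28, Fisher's exact test, adjusted p = 0.11). Sites share libraries and are not replicates, so these tests cover counting error only.

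Most members held the core motif at their centre. ACGTG or GCGTG, searched on both strands of the 200 bp around the centre, was present in 194 of 232 members (83.6%, 95% exact binomial interval 78.2–88.1). In windows of the same length 5 kb to either side it was present in 28.2% of 464, and around all coding gene starts in 42.7%. The share was 80.6% at promoters, 86.2% at other starts and 89.1% in distal members. ACGTG was present in 64.7% of members and GCGTG without ACGTG in 18.97%. All 38 members without a copy in the window held at least 1 elsewhere in the region. In promoter members there were 9.96 copies per kb within 100 bp of the centre against 2.78 at 500 to 1000 bp, and in distal members 9.30 against 2. Distal members reached this density in sequence with fewer CpG dinucleotides, with a median observed to expected CpG ratio of 0.522 against 0.884 at promoters and a GC content of 61.75% against 69.0%.

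**Figure D2:**
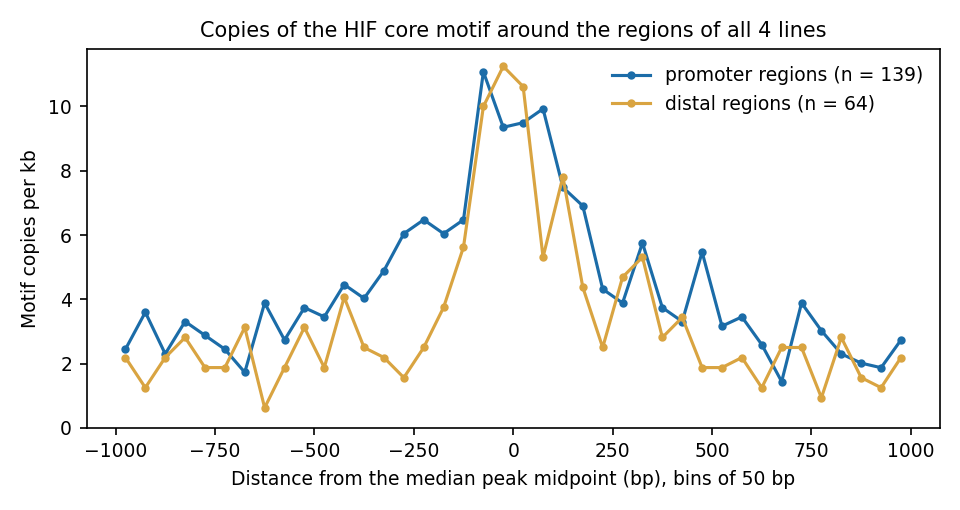
Copies of ACGTG or GCGTG per kb (vertical axis) by distance from the median peak midpoint (horizontal axis, 50 bp bins on the plus strand of the genome) for the 139 promoter and 64 distal members. Both curves peak within 100 bp of the centre, and beyond 500 bp they average 2.78 copies per kb at promoters and 2 in distal members.

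Longer elements that contain the core were less frequent. The palindrome CACGTG, which overlaps a pair of ACGTG copies and is also the site of E-box proteins such as MYC and CLOCK, was in the window of 10.3% of members, against 2.37% of windows 5 kb away and 5.85% of coding starts. TNGCGTG, the AHR core, which contains GCGTG, was in 9.48% of members, against 4.96% of windows 5 kb away and 4.345% of coding starts. It was in 17.2% of distal members and 5.04% of promoter members. These matches are letters in a window and do not show which partner of HIF-1β was bound.

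Beside other sites of the same line the excess of the motif was smaller than that over flanking windows. Member sites held it within 100 bp of their own centre in 75.4% against 65.1% of the other sites of T47D (odds ratio 1.64, Fisher's exact test, adjusted p = 0.0076) and in 81.9% against 74.3% in A549 (odds ratio 1.57, Fisher's exact test, adjusted p = 0.037). In PC-3 the shares were 81.0% and 75.1% (odds ratio 1.42, Fisher's exact test, adjusted p = 0.084), and in HCT-116 78.45% and 75.5% (odds ratio 1.18, Fisher's exact test, adjusted p = 0.37), neither past the threshold. Among the higher-ranked 50% of sites the test passed in no line, with odds ratios of 1.54 in both T47D and A549 (Fisher's exact test, adjusted p = 0.054 and 0.13) over fewer sites. Nor did it pass in any line among promoter sites alone, with odds ratios of 1.21 in T47D and 1.58 in A549 (Fisher's exact test, adjusted p = 0.66 in both). Among distal sites it passed in T47D (79.7% against 56.3%, odds ratio 3.04, Fisher's exact test, adjusted p = 0.0012) and not in A549 (0.38). The test did pass in PC-3 and HCT-116 under other definitions of a site. With a peak of either replicate as a site the odds ratio was 2.5 in PC-3 (Fisher's exact test, adjusted p = 1.1e-14) and 1.44 in HCT-116 (Fisher's exact test, adjusted p = 0.0017). With a replicate left out, every peak of the line's other replicate was a site, so the rule on both replicates no longer applied in that line. The odds ratio in PC-3 was then 2.09 without its replicate 1, 1.77 without its replicate 2 and 1.57 without A549 replicate 2 (Fisher's exact test, adjusted p = 8.5e-07, 0.0037 and 0.021), and in HCT-116 1.93 without its replicate 2 (Fisher's exact test, adjusted p = 0.00063).

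**Figure D3:**
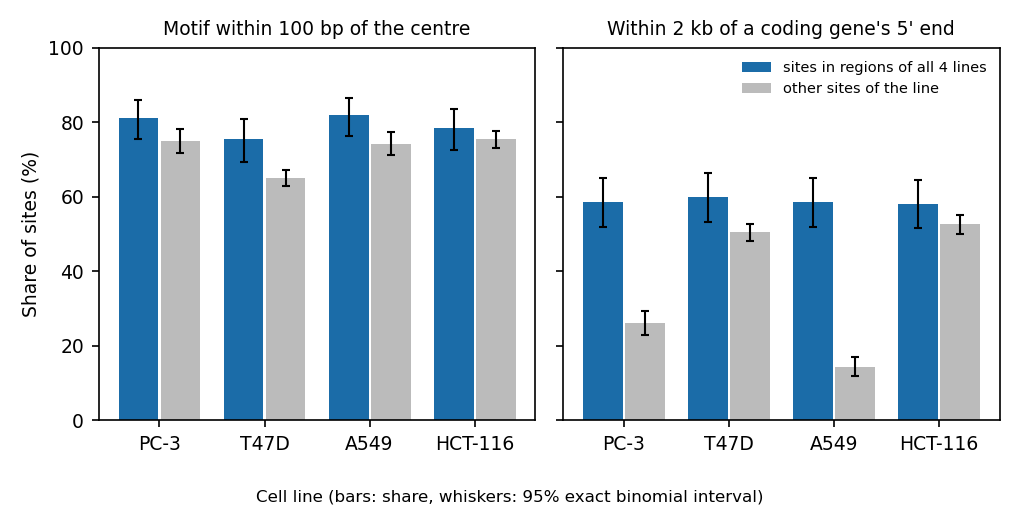
Share of sites (vertical axis, percent) with the motif within 100 bp of the centre (left) and within 2 kb of a coding gene's 5′ end (right) in each line, for sites in regions of all 4 lines and for the other sites of the line, with 95% exact binomial intervals as whiskers. The promoter bars of member sites, which lie in the same regions in every line, are between 58.2% and 59.9%, and those of the other sites range from 14.3% in A549 to 52.7% in HCT-116.

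For each site the score was turned into a percentile among the sites of its line, from the mean of its percentiles in both libraries, because scores of different libraries are not on a common scale. Where scores are set side by side below, high and low describe the values as listed. The 232 members were ranked by the mean of the 4 percentiles. The scores have no header that explains them. They start near 50 in every list, and the highest value of a list lies at or just above 3100 except in PC-3 replicate 1 (2132), so regions at that value in a list are tied in it.

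Genes of glycolysis and of the HIF pathway were among the highest members. The region at GPI (chr19:34849476-34851289), whose product converts glucose-6-phosphate to fructose-6-phosphate, scored 2037 and 3100 in PC-3 and 3100 in each of the other 6 libraries. At ENO1, which encodes enolase (chr1:8937571-8940163), the scores were 1695 and 3100 in PC-3, 2957 and 3100 in T47D, 2150 and 1897 in A549 and 3100 in both libraries of HCT-116. The region downstream of HIF1A (chr14:62215885-62218946) scored 1960 and 3059 in PC-3, 3100 and 3100 in T47D, 2248 and 1431 in A549 and 3100 and 2847 in HCT-116. In all 3 regions the percentile was above 99 in every line. The last of them, by the naming rule nearest to the start of SNAPC1 (10192 bp), had its centre 3009 bp outside the HIF1A gene and its edge within 2 kb of the start of the antisense transcript HIF1A-AS3.

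ANKRD37, known as a HIF target, ranked next, with scores from 1060 in A549 replicate 3 to 3100 in 5 libraries. NARF (nuclear prelamin A recognition factor) had scores between 1430 and 3100, and KDM3A, a histone H3 lysine 9 demethylase, between 1023 and 3054. KDM3A had the smallest spread of percentiles after GPI among the 15 highest members, from 98.7 in PC-3 to 99.1 in T47D. PDK1 (chr2:173419849-173422027) scored 1163 and 2564 in PC-3, 2011 and 2691 in T47D, 963 and 1017 in A549 and 3100 and 2158 in HCT-116. Its percentile was highest in HCT-116 (99.6) and lowest in A549 (97.4). The other members of the 15 highest were FAM174B, LDHA, a region shared by PGAM1 and RRP12, GAPDH, ALDOA, SLC16A3, and the intronic regions of SLC2A3 and EGLN3, each with a percentile above 96 in every line. Of these 15 members, 10 lay within 2 kb of a transcript start of a gene in the HIF pathway lists described below, against 45 of all 232 members (19.4%).

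**Figure D4:**
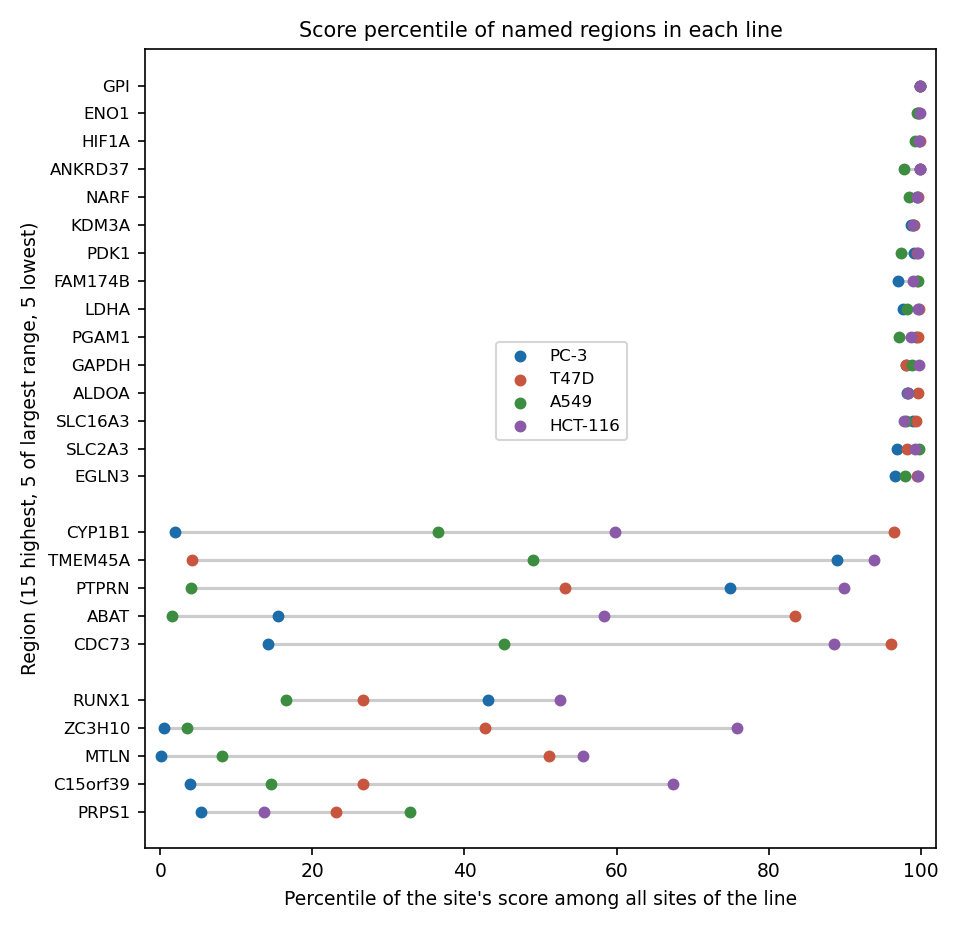
Percentile of the score among all sites of the line (horizontal axis) for the 15 members with the highest mean, the 5 with the largest range and the 5 with the lowest mean (vertical axis), with 1 point for each of the 4 lines and a grey bar over their range. Regions are labelled by the gene at or nearest to them, with the transcript start used where it is nearer than a gene record. The 15 highest all lie above 96 in every line, whereas CYP1B1 runs from 2.01 in PC-3 to 96.5 in T47D.

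The order of the members was alike between lines but less so than between replicates. Spearman's rho over the 232 members was 0.795 between PC-3 and HCT-116, 0.710 between T47D and HCT-116, 0.682 between PC-3 and A549, 0.675 between PC-3 and T47D, 0.669 between A549 and HCT-116 and 0.643 between T47D and A549, a mean of 0.696 (SD 0.0532 over 6 pairs). Between replicates it was 0.955 in HCT-116, 0.954 in T47D, 0.912 in PC-3 and 0.841 in A549. These are descriptions over regions that share libraries and were selected on the same scores. The mean was 0.698 over the promoter members and 0.640 over the distal members. A core of 40 members stood above the 90th percentile in all 4 lines (22 at promoters, 11 distal), 74 above the 75th and 125 above the 50th, while 78 were above the 90th in none. The median range of a member's percentile was 35.15, with 49 members under 10 and 73 over 50.

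The rank of members differed between lines. The median percentile of members was 91.2 in HCT-116, 90.35 in T47D, 74.7 in PC-3 and 62.3 in A549, where the last pair have the fewest sites to be ranked among. HCT-116 gave the highest percentile for 104 members, T47D for 100, A549 for 19 and PC-3 for 9.

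The members with the largest ranges were CYP1B1, TMEM45A, PTPRN, a distal region near ABAT, and CDC73. CYP1B1 (chr2:38302881-38305026), whose product metabolises oestrogens and polycyclic hydrocarbons, scored 63.2 and 53.7 in PC-3, 1054 and 732 in T47D, 86.9 and 107 in A549 and 166 and 133 in HCT-116. Both T47D values stood above those of all other libraries. TMEM45A, a transmembrane protein gene, went the other way, with 60.5 and 55.8 in T47D, 358 and 435 in PC-3, 85.4 and 187 in A549 and 1040 and 481 in HCT-116. At CDC73, a tumour suppressor of the PAF1 complex, T47D scored 608 and 925 and PC-3 58.02 and 108. PTPRN, a secretory granule protein of neuroendocrine cells, scored 53.0 and 68.3 in A549 and 645 and 369 in HCT-116, and the region near ABAT was lowest in A549 (52.4 and 59.9).

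At the low end stood PRPS1 (a distal region 22576 bp from the nearest coding start), C15orf39, MTLN, ZC3H10 and RUNX1. PRPS1 scored 55.2 and 79.6 in PC-3, 63.7 and 89.2 in T47D, 103 and 82.9 in A549 and 110 and 55.0 in HCT-116. Its percentile among the sites of a line ran from 5.41 in PC-3 to 32.9 in A549. Among all peaks of a list it stood at 50.5 in T47D replicate 2, 54.2 in A549 replicate 2 and 57.0 in HCT-116 replicate 2. ZC3H10, whose region also held the starts of ESYT1 and of the ribosomal protein gene RPL41, was low in PC-3 (51.7 and 57.8) and in A549 replicate 3 (50.8) but not in HCT-116 (322 and 188). The RUNX1 region lay at an inner start of that haematopoietic transcription factor gene.

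The members just inside the rule had a score near the lower limit of a list in at least 1 library. The lowest was 50.2 at C15orf39 in A549 replicate 3, and the region of MTLN scored 50.5 in PC-3 replicate 1. A score under 60 in some library occurred in 44 members, while 123 members had 100 or more in all 8 and 31 had 500 or more in all 8. The lowest of a member's 8 scores was in PC-3 replicate 1 for 92 members, in A549 replicate 3 for 73 and in A549 replicate 2 for 42.

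Just outside the rule were the 305 regions of 3 lines. A549 was the line without a site in 133, T47D in 88, PC-3 in 61 and HCT-116 in 23. In 118 of them the remaining line had a peak of 1 replicate that the other lacked, and of 46 such regions in PC-3, 45 had it in replicate 2, the longer list. The highest of the 305 was a region 11890 bp from the start of DDIT4, a stress-induced inhibitor of mTORC1, with a mean percentile of 98.0 over the other 3 lines and no peak in either PC-3 library. A region at an inner start of PFKFB3, which makes the activator of phosphofructokinase, came next (96.0), with no peak in HCT-116.

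The genes at members were read against lists of known HIF pathway genes. Over all coding genes, 166 of 20136 (0.824%) had a member within 2 kb of their 5′ end. Of the 143 listed HIF pathway genes 39 did (27.3%), and 44 did when every annotated transcript start was counted, against 1.01% of all coding genes. A site of at least 1 line lay within 2 kb of 71 of the 143, and of 1843 of all coding genes (9.15%). Over 25 kb the counts were 335 coding genes (1.66%) and 43 of the 143 listed genes (30.1%). No test was made of these shares, because the lists were chosen with results of these data known. Members at a listed gene had a median mean percentile of 88.95, against 72.8 for the others.

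Every step of glycolysis from hexokinase to lactate dehydrogenase had a member at a start of a gene for it. Of glucose transporters and hexokinases, SLC2A1 (GLUT1) and HK2 were reached and HK1 was not, and SLC2A3 was reached only by the intronic region described above. In upper glycolysis 5 of 12 genes were reached (GPI, PFKL, ALDOA, ALDOC and TPI1), and PFKFB4 by another start. On the list for lower glycolysis 6 of 10 were (GAPDH, PGAM1, PGM1, ENO1, PKM and LDHA), and PGK1 by another start. PGM1 encodes a phosphoglucomutase, which is not an enzyme of lower glycolysis, and it was also on the glycogen synthesis list. HK2 scored 611 and 972 in PC-3, 931 and 930 in T47D, 94.3 and 149 in A549 and 1622 and 1077 in HCT-116, so that both A549 values lay below all others. ALDOC, the brain-type aldolase, scored 145 and 124 in PC-3, 739 and 728 in T47D, 88.0 and 79.9 in A549 and 863 and 569 in HCT-116. Its percentile ranged over 68.0, whereas that of ALDOA, the ubiquitous aldolase, ranged over 1.44. PKM (pyruvate kinase) had a pair of members 1182 bp apart, and in both the lowest score was in PC-3 replicate 1 (114 and 282). SLC16A3 (the lactate exporter MCT4) was reached at another start and had scores from 1115 to 2338 with no line apart from the rest.

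**Figure D5:**
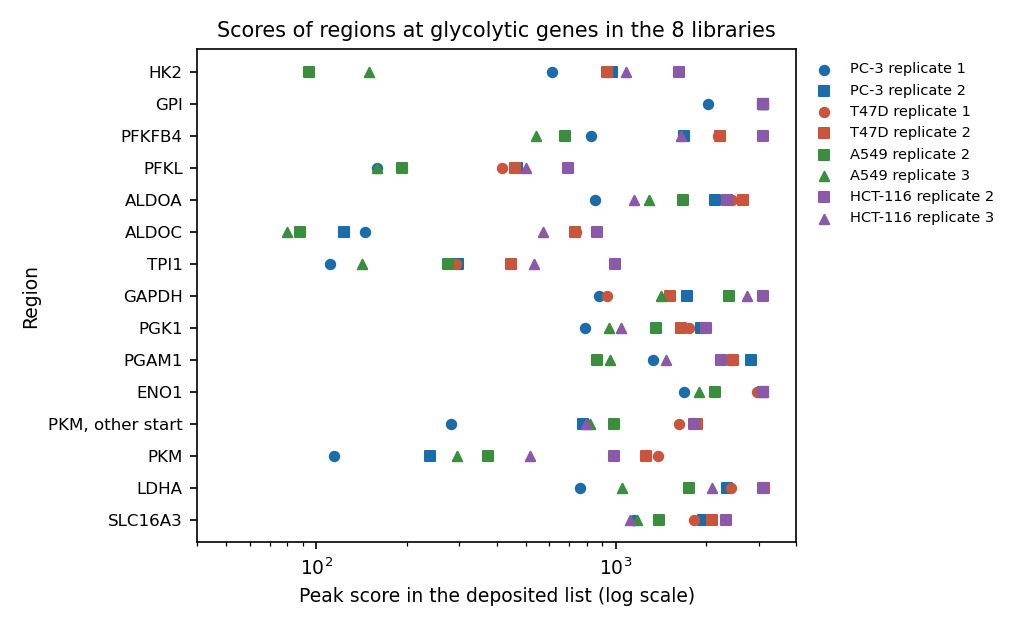
Peak score (horizontal axis, log scale) in each of the 8 libraries, with colours for lines and symbols for replicates, for 15 members at starts of glycolytic genes and of SLC16A3 (vertical axis), without the distal members. GPI has 7 points on top of each other at 3100, and HK2 and ALDOC have their A549 points below the others.

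On the list of pyruvate dehydrogenase kinases and mitophagy genes, which also held genes of other functions, 7 of 11 were reached. They were PDK1 and PDK3, the mitophagy receptors BNIP3 and BNIP3L, FAM162A, the mitochondrial protease LONP1 and the MYC antagonist MXI1. PDK3 was far lower in rank than PDK1, with scores of 58.45 and 90.04 in PC-3 and 59.0 and 75.9 in A549 against 304 and 206 in T47D and 282 and 174 in HCT-116. BNIP3 scored 88.0 to 373 over the 8 libraries and BNIP3L 335 to 1582. On the list of oxygen sensing and HIF feedback genes 2 of 9 were reached, ANKRD37 and EGLN1 (PHD2). The latter scored 71.6 and 279 in A549 and 386 and 344 in HCT-116. None of the 5 HIF subunit genes had a member within 2 kb of its start.

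Histone demethylases of the JmjC family, which use oxygen as a substrate, were reached in 3 of 17 cases (KDM3A, KDM4B and KDM6B) and KDM4C at another start. KDM4B, with scores from 584 to 2084, was close behind KDM3A, and all 4 stood above the 50th percentile in every line. Of the collagen-modifying enzymes 3 of 12 were reached (P4HA1, P4HB and PLOD2) and P4HA2 at another start, with P4HA1 the highest (679 to 2539). Secreted factors gave 3 of 13, namely ADM (adrenomedullin), ANGPTL4 and STC2. The region of ADM, which covered the start of AMPD3, was lowest in T47D (288 and 269) and reached 2314 in HCT-116. That of STC2 was lowest in A549 (688 and 558). VEGFA, the vascular growth factor, had sites in T47D and HCT-116 and a peak in PC-3 replicate 2, and was not a member.

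The remaining lists gave fewer genes. Stress and mTOR regulators gave CCNG2, DDIT4 and ERO1A (3 of 11), where DDIT4 scored 81.5 and 243 in PC-3 and 1256 and 757 in HCT-116, and ERO1A, an oxidase of the endoplasmic reticulum, 61.3 and 194 in A549 and 379 and 1124 in PC-3. The bHLH repressors gave BHLHE40, ID1 and MXI1 (3 of 10). Glycogen synthesis gave GBE1 and PGM1 (2 of 8), iron handling the transferrin receptor TFRC (1 of 8) and cell surface and signalling genes MAP2K1 (1 of 10), a region shared with TIPIN that scored 61.7 to 248 and ranked among the lowest. Of AHR targets CYP1B1 was reached, at another start (0 of 7 by the gene record). None of the 10 circadian clock genes and none of the 17 cell cycle genes were reached.

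Large families taken by gene symbol were counted the same way, and known HIF targets among them were not removed. Zinc finger genes were reached in 9 of 515 cases (1.75%), against 0.824% of all coding genes. Cytosolic ribosomal proteins were reached in 1 of 83 cases (RPL41), and mitochondrial ribosomal proteins (78), complex I subunits (39) and olfactory receptors (415) in none. At promoters outside the lists the high-ranking members included NARF, FAM174B, PNRC1 (a nuclear receptor coactivator, 847 to 2801) and SEC61G (a subunit of the translocon).

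Several listed genes missed membership by 1 library. CITED2, ENO2, HES1, KDM5C and PLOD3 had sites in T47D, A549 and HCT-116 within 2 kb of their start and a peak of replicate 2 alone in PC-3. KDM2A and SIAH2 had sites in the other 3 lines and a peak of a single replicate in A549. Leaving out PC-3 replicate 1, so that every peak of replicate 2 was a site, gave 277 regions and 44 listed genes, with 1.03% of all coding genes reached.

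The 64 distal members included some of the highest ranks. Their median mean percentile was 76.84 against 74.98 for the 139 at promoters. They lay 2337 to 294060 bp from the nearest coding transcript start, with 41 over 10 kb, 13 over 50 kb and 5 over 100 kb. By their centre, 33 were intergenic, 15 in a lncRNA gene, 14 in an intron of a coding gene and 2 in a coding exon, those of SLC8A3 (a sodium and calcium exchanger) and KLHL31. Those within 25 kb of the 5′ end of a listed HIF gene record numbered 4. That count left out members near another transcript start of a listed gene. Such members lay 3562 bp from a start of HIF1A, 6243 bp from EGLN3 and 19797 bp from SCARB1. The share over all distal regions was not counted.

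The 10 highest distal members were those downstream of HIF1A, in introns of SLC2A3, EGLN3 and SEMA4B, near NDRG1, BHLHE40, ARRDC3, ZNF395 and NPEPPS, and in SLC8A3. The region near NPEPPS held no motif copy in its central 200 bp. Much of its 120-base window recurred, nearly unchanged on the opposite strand, in that of the next-ranked member, near MRPL45 on the same chromosome. The lists hold no reads, so the placing of reads between these copies cannot be checked. The SLC2A3 region (chr12:8122578-8124349) scored 705 and 1695 in PC-3, 954 and 1420 in T47D, 2245 and 1917 in A549 and 2812 and 1930 in HCT-116, and lay 33795 bp from the nearest transcript start of that gene. The EGLN3 region (chr14:34406785-34408621) scored 672 and 1520 in PC-3, 2125 and 2501 in T47D, 1483 and 1143 in A549 and 3100 and 2207 in HCT-116, and lay 6243 bp from the nearest coding transcript start, also of EGLN3. Neither region stood low in any line, and in both the lowest of the 8 scores was in PC-3 replicate 1.

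A region 71985 bp from the start of NDRG1, a stress-response gene induced by hypoxia (chr8:134386250-134389826), scored 1547 and 2406 in PC-3, 654 and 979 in T47D, 1789 and 1344 in A549 and 3100 and 1643 in HCT-116, and held 7 motif copies in its central 200 bp. The region centred 1594 bp outside BHLHE40, a bHLH repressor (chr3:5027128-5029470), scored from 728 to 2332 and accompanied another member at the BHLHE40 promoter. Near ARRDC3, an arrestin-domain gene, a region 91642 bp from the nearest coding start (chr5:90575387-90578020) lay within 2 kb of a lncRNA start and scored 2512 and 1797 in A549 against 566 and 594 in T47D. SEMA4B (chr15:90708326-90709973) scored from 603 in T47D replicate 1 to 1818 in HCT-116 replicate 2. At SCARB1 (chr12:125322050-125323695) the percentile was 83.8 in PC-3, 94.2 in T47D, 97.4 in A549 and 87.4 in HCT-116.

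Other distal members lay at non-coding genes. A start of an annotated lncRNA lay within 2 kb of 21 of the 64 distal members (32.8%, 95% exact binomial interval 21.6–45.7), among them NEAT1, the RNA scaffold of paraspeckles, and MIR210HG, the host of the hypoxia-induced microRNA miR-210. In distal regions of 3, 2 and 1 lines the share was 17.7%, 16.3% and 12%. Median widths were 1872, 1566, 1470 and 1271 bp in the same order from 4 lines to 1, and the part of width in these shares was not tested. The NEAT1 region (chr11:65188302-65191779) scored 52.8 and 135 in PC-3, 268 and 571 in T47D, 319 and 362 in A549 and 450 and 241 in HCT-116. The MIR210HG region (chr11:567667-569749) scored 166 and 997 in PC-3, 83.0 and 68.3 in T47D, 81.0 and 411 in A549 and 696 and 517 in HCT-116. NEAT1 was lowest in PC-3, and MIR210HG lowest in T47D together with A549 replicate 2, whose 2 libraries stood far apart there. A region in the lncRNA gene H2AZ1-DT (chr4:101016750-101017979) scored from 57.3 in A549 replicate 3 to 411 in PC-3 replicate 2.

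Some loci held more than 1 member. Neighbouring members lay within 100 kb of each other in 12 cases. They included a promoter and a distal region 2.01 kb apart at SLC2A1, 4.47 kb apart at BHLHE40 and 8.14 kb apart at ZNF395. The pair at PKM was another case, as were pairs of distal regions near ELF3, near NPEPPS and near NEAT1. At SLC2A1 the distal region, in the divergent lncRNA gene SLC2A1-DT, ranked above the promoter region (mean percentile 77.25 against 62.1). EGLN3 held another intronic member with a mean percentile of 92.9.

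The highest-ranked members did not have the largest share of central motifs. In the 58 highest members the share with a copy in the central 200 bp was 72.4%, in the next 58 it was 89.7%, in the next 91.4% and in the 58 lowest 81.0%. Over the whole region, however, the median number of copies fell with rank from 9.5 to 8, 7 and 6, along with the median width of 2102.5, 1991.5, 1768 and 1683.5 bp. Among the 15 highest, KDM3A, GAPDH and the PGAM1 region had no copy in the central window, and their nearest copies lay 144, 102 and 106 bp from the centre.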

How the data were processed

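ChIP-seq of HIF-1β had been performed in 8 libraries. Per the submitters' processing notes and the study's methods, the authors trimmed reads with Trim Galore 0.3.3, used BWA 0.7.5a-r405, SAMtools 0.1.19, Picard 1.106 and bedtools 2.17.0, and called peaks with MACS. Coordinates are of GRCh37, the build the methods name. The score of each peak is given as deposited by the authors, with no header to explain it. T-PIC, another caller named in the methods, cannot be seen in the lists. Because calling was done per library and depth is unknown, a site can be missing where a library was shallow, and scores are not on a common scale between libraries. Scores are printed side by side as listed, and members were ranked by percentiles within a line.

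Peaks on the 24 main chromosomes overlapping by 1 bp or more were merged. Starts came from GENCODE 44 lifted to GRCh37. Tests were Fisher's exact tests (two-sided) with Benjamini-Hochberg adjustment. Intervals are exact Clopper-Pearson intervals at 95%. Python 3.11.15, NumPy 2.4.6, SciPy 1.17.1, pysam 0.24.0, Matplotlib 3.10.9 and samtools 1.23.1 were used. Merging was tested on simulated data, and all 200 simulated shared regions were found.

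Regions were named for the coding gene with the nearest 5′ end, or, in the text, for the gene whose other transcript start or body held them. Those named were the 15 highest and 5 lowest in mean percentile, the 10 highest distal, the 5 with the largest range, those at listed genes and those with the smallest replicate overlap. NARF, PNRC1, SEC61G, SCARB1, MRPL45, NEAT1, MIR210HG, H2AZ1-DT, KLHL31 and the loci of neighbouring members were named after their values were seen where the rule did not take them. The members and gene lists were chosen with earlier results of these data known. Motif searches covered both strands. The lists hold no expression, so the identity of the lines was not checked. Alternatives concerned overlap, peaks, site definition, replicates, promoter, motif window and starts.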

Additional observations from a re-analysis of the deposited data

How the results depend on the processing

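The 232 members became 213 when replicate peaks had to overlap by 50% of both, 135 with the higher-scoring 50% of each list and 456 with a peak of either replicate. With each replicate left out in turn, they numbered 232 to 277, the promoter share was 58.4 to 62.5%, the motif share 82.67 to 86.11%, the listed genes 39 to 44 and the mean rho between lines 0.6748 to 0.7022. The promoter share was 72.41% with the starts of all transcripts. The motif share was 57.33% in 100 bp, 100% in the whole region and 71.55% around the midpoint of the merged region. The mean rho was 0.6403 over distal regions only.

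For the motif, the odds ratios by Fisher's exact test were 1.3 in T47D (adjusted p = 0.47) and 1.75 in A549 (0.16) with the higher-scoring 50% of each list, 2.5 in PC-3 (1.1e-14) and 1.44 in HCT-116 (0.0017) with a peak of either replicate, and 1.54 in both T47D (0.054) and A549 (0.13) among higher-ranked sites. By the same exact test they were 1.21 in T47D (0.66) and 1.58 in A549 (0.66) among promoter sites and 1.35 in A549 (0.38) among distal sites. In HCT-116 the direction turned with a window of 100 bp (odds ratio 0.987, Fisher's exact test, adjusted p = 0.94). Over whole sites every member site of PC-3, T47D and HCT-116 held the motif, so no odds ratio could be given, and the test passed in PC-3 too (100% against 97.83%, Fisher's exact test, adjusted p = 0.023). With replicates left out, the odds ratios were 1.36 to 2.09 in PC-3 (where it also passed without A549 replicate 2, 1.57), 1.54 to 1.78 in T47D, 1.52 to 1.98 in A549 and 1.14 to 1.93 in HCT-116.

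For promoter position, the odds ratio in T47D was 1.37 (0.13) with the higher-scoring 50% of each list and 1.28 (0.11) with promoters of 500 bp. In HCT-116 it was 1.38 (0.0016) with a peak of either replicate and 1.45 (0.024) among higher-ranked sites. With replicates left out it was 3.84 to 5.17 in PC-3, 1.34 to 1.67 in T47D, 7.82 to 13.2 in A549 (highest without PC-3 replicate 1) and 1.1 to 1.44 in HCT-116, where it passed without PC-3 replicate 1 (0.0059), A549 replicate 2 (0.041) or A549 replicate 3 (0.0075).

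Fewer peaks or sites enter the higher-scoring, promoter and distal subsets, and the causes of the other changes were not tested. The alternatives of peaks, overlap and replicates for these tests and for the listed genes, and the use of all transcript starts for the promoter test and the listed genes, were chosen after seeing the data. No paired analysis was possible because a site needs peaks of both replicates and the tests run over sites, not samples. The lists give no depth, and binding below a list's threshold cannot be seen in them.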
